A study of Mus musculus with 9 samples.

Results

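The NF-kappaB and I-kappaB genes examined here are 10 of the 48795 gene IDs in the RNA count files, matched by Ensembl ID to a fixed list of symbols. They comprise 5 subunit genes (Nfkb1, Nfkb2, Rel, Rela and Relb) and 5 genes of the I-kappaB family. Of the latter, Nfkbia, Nfkbib and Nfkbie encode the classical cytoplasmic inhibitors, and Nfkbiz and Bcl3 encode nuclear I-kappaB proteins. Where inhibitors are counted or summed below, all 5 are included unless only the classical ones are named. The word then stands for membership of the family and not for a shown inhibitory role. All 10 passed the low-count filter, as did 15546 genes in all. RNA-seq libraries came from splenic follicular B cells, selected on CD23, of C57BL/6 yy1 f/f mice, in which loxP sites flank Yy1 in every library. In the tatcre group (3 libraries) the cells received TAT-CRE, a cell-permeable Cre recombinase, to delete Yy1. The mock group (3 libraries) had a mock treatment, and both groups were then grown with LPS and IL-4, so all 6 libraries are of stimulated cells. The series text gives 72 hours of culture with 10% serum and 3 mice whose spleens were divided, while the sample text gives 48 hours with 20% serum and names TAT-CRE for every sample. The titles were followed for the groups. The labels used here give no age or sex of the mice and tie no library to a mouse, so p-values reflect only how far these libraries spread, which may be technical. Because Cre exposure and loss of Yy1 coincide in the tatcre group, they cannot be told apart.

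NF-kappaB factors are dimers of Rel-family proteins that bind short kappaB sites in DNA. In resting B cells, inhibitors of the I-kappaB family hold them in the cytoplasm. Signals from Toll-like receptors such as the LPS receptor activate the IKK kinase complex, which marks the inhibitors for destruction and frees the dimers. Nfkb1 and Nfkb2 encode precursors whose C-terminal ankyrin repeats resemble an inhibitor and which give rise to the DNA-binding p50 and p52. Nfkbia is itself a textbook target of NF-kappaB, which closes a negative feedback loop. In B cells the pathway is known for supporting survival, growth and class switching after stimulation.

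Libraries held 22729187 to 28230727 gene counts. Levels are given as CPM, a gene's count scaled to a common library total, on library sizes scaled by the trimmed mean of M-values (TMM). Yy1, the targeted gene, averaged 107 ± 5.89 CPM over mock libraries and 1.5 ± 0.51 CPM over tatcre libraries (SD, n = 3 each). The defining B cell markers were present. Their summed level over 8 genes was 5060 to 5350 CPM in mock and 4140 to 4200 CPM in tatcre libraries. Of the 8, 5 were called lower, beside 16.3% of all tested genes. Sums over 8 T cell markers were 15 to 21.3 CPM in mock and 10.2 to 13.7 CPM in tatcre libraries, nearly all from Lck, and Cd3e, Cd3d and Cd3g averaged under 1 CPM in both groups. The 5 NK cell markers summed to at most 0.809 CPM, the 8 myeloid markers to at most 2.3 CPM and the 4 erythroid markers to at most 0.167 CPM in any library. Klrd1, Ly6g, S100a8, S100a9, Cd14 and Hbb-bs had 0 counts throughout. Plasma cell markers summed to 352 to 408 CPM in mock and 307 to 358 CPM in tatcre libraries, mostly from Xbp1 and Jchain. In mock and tatcre libraries Sdc1 averaged 2.84 and 3.02 CPM and Prdm1 25.5 and 24.1 CPM. Dendritic cell markers summed to 120 to 134 CPM in mock and 106 to 113 CPM in tatcre libraries, mostly from Flt3. The part of these differences in the results below was not tested. In a bulk library fewer cells of a type and less RNA per cell cannot be told apart. The library mock 3 lay farthest out on the first principal component (61.2% of variance), at -79 against -36.4 and -9.8 for the other mock libraries.

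Because several of these genes are known to be controlled by NF-kappaB itself, their promoters are shown first. RefSeq windows (GRCm38.p6) from 250 bases before to 50 bases after a transcription start were at hand for 7 of the 10 members, 9 windows in all. Nfkb1, Relb and Nfkbiz had none. The kappaB consensus was searched on both strands, and overlapping matches were counted separately. It occurred in 7 of the 9 windows, belonging to Nfkb2, Rel, Nfkbia, Nfkbie and Bcl3, and in 8.46% of all 32851 windows of the same length. Of the 7 windows 3 are of Nfkb2, and 2 of these overlap and share a single site, GGGACTTTCC. A YY1 core, ATGGCG, also searched on both strands, was in none of the 9 windows and in 8.93% of all windows. Only this exact string was searched, so its absence does not show that a window lacks other forms of a YY1 site. The 250 bases before the start are printed 5′ to 3′ for 3 members called lower that hold a match (Nfkbia, Nfkbie and the first of 3 windows of Nfkb2), for Rel, which holds a match and was not called, and for Nfkbib, which was called lower without one. Capitals mark kappaB consensus matches on either strand.
Nfkbia, chr12:55492648-55492897, minus strand: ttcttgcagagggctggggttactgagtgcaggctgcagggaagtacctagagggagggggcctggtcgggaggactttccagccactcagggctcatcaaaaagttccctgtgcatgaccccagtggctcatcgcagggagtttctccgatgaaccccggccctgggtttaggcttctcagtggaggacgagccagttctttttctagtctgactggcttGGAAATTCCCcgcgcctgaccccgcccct
Nfkbie, chr17:45555450-45555699, plus strand: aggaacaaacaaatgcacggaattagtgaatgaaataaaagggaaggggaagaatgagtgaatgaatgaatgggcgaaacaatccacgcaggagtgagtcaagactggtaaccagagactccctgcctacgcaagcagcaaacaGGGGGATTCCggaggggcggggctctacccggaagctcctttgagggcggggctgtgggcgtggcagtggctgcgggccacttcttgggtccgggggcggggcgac
Nfkb2, chr19:46304487-46304736, plus strand: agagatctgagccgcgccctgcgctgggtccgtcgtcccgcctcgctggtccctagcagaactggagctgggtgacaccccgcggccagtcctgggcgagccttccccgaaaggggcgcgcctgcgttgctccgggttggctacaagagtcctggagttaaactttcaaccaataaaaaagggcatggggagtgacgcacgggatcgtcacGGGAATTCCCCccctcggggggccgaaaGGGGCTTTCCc
Rel, chr11:23770970-23771219, minus strand: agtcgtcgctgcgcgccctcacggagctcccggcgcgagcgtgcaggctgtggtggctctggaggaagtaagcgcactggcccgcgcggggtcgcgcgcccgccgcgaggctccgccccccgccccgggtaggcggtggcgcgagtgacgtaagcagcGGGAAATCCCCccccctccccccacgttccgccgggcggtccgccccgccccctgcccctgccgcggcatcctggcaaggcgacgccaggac
Nfkbib, chr7:28766645-28766894, minus strand: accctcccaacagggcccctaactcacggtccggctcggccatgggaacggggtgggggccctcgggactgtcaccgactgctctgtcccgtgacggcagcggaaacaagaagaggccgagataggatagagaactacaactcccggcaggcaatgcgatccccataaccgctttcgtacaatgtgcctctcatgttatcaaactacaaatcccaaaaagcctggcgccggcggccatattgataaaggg
The match of Nfkbia, GGAAATTCCC, lay 29 to 20 bases before the start, and that of Nfkbie, GGGGGATTCC, 106 to 97 bases before it. Nfkb2 held 3 matches in the printed window: GGGAATTCCC (39 to 30 bases before the start), the overlapping GGAATTCCCC (38 to 29) and GGGGCTTTCC (11 to 2). Rel held the overlapping matches GGGAAATCCC (92 to 83 bases before the start) and GGAAATCCCC (91 to 82). In Bcl3 the match GGGAAGTCCC lay after the start. A match describes letters in a window and does not show a bound site.

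Tatcre cells were compared with mock cells to see how these genes stood after B cell activation with and without the Cre treatment that removes Yy1. Of the 10 members 6 were called lower, none was called higher and 4 were not called (edgeR quasi-likelihood test, Benjamini-Hochberg adjusted p under 0.05 over all tested genes). At an unadjusted p under 0.05, and with DESeq2, the number higher was again 0. Over all tested genes 16.3% were called lower and 10.8% higher. Among the 6430 genes within the members' range of expression the shares were 23.7% lower and 12.4% higher. Calls fell on 4 of 5 inhibitors and 2 of 5 subunits. The 4 inhibitors were the 3 classical ones and 1 of the 2 nuclear I-kappaB genes, Nfkbiz. The median log2 fold change was -0.5 for inhibitors, -0.13 for subunits and 0.02 for all tested genes. The difference between these counts was not tested. The 2 groups of libraries did not overlap for the same 6 members, a state shared by 44% of all tested genes and by 50.6% of those within the members' range of expression. The number called lower was 6 without mock 3, 4 without mock 2 and 5 without tatcre 1 or tatcre 2. It was 4 with library size alone as the scale, and 4 with the replicate number as a block.

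**Figure D1:**
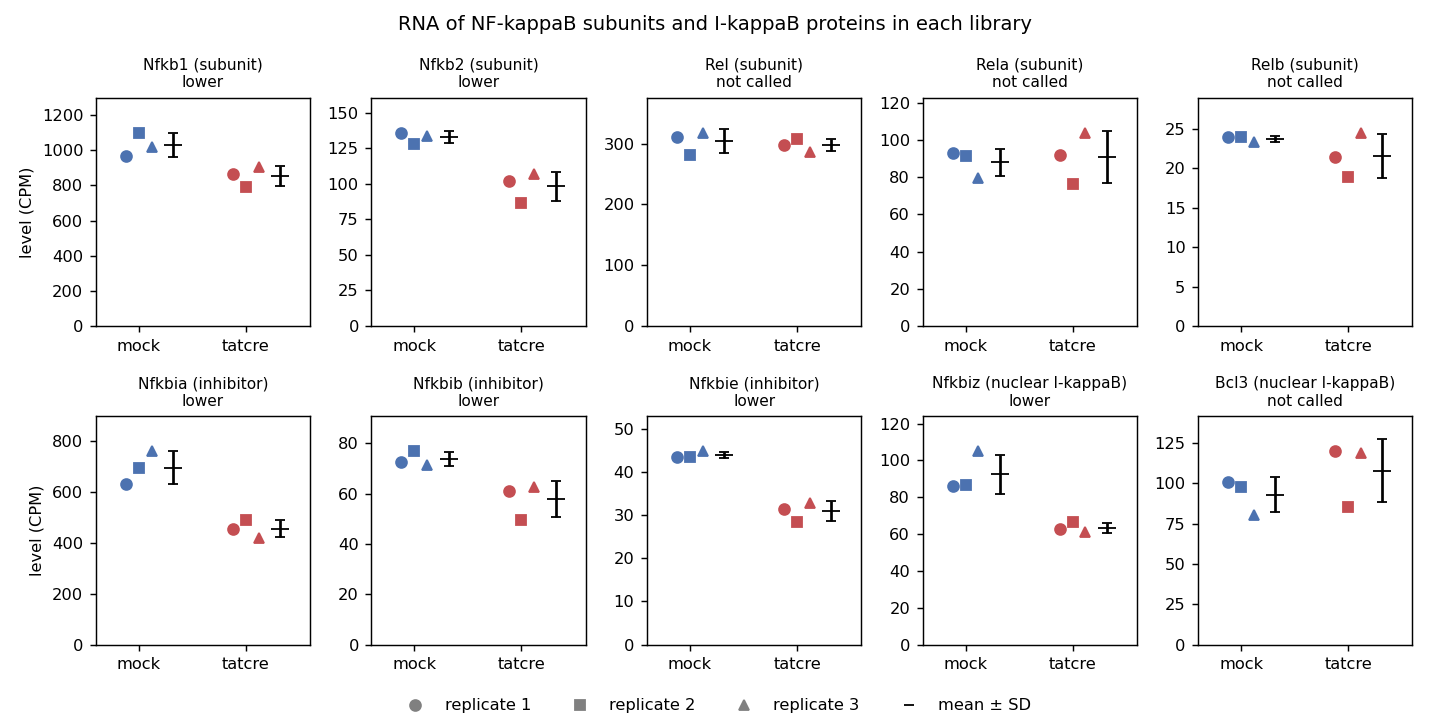
Level of each of the 10 genes in CPM (vertical axes from 0) in the 3 mock and 3 tatcre libraries; marker shapes give the replicate number and the bar beside each group its mean ± SD. For Nfkb1, Nfkb2, Nfkbia, Nfkbib, Nfkbie and Nfkbiz every tatcre library lies below every mock library, while the groups overlap for Rel, Rela, Relb and Bcl3.

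The classical inhibitors all fell. Nfkbia encodes I-kappaB-alpha, the inhibitor that is rapidly degraded on stimulation and then made again. Nfkbia (ENSMUSG00000021025, chr12:55489409-55492647) stood at 632, 695 and 759 CPM in mock 1 to 3 and at 455, 487 and 420 CPM in tatcre 1 to 3. The groups were well apart, with the highest tatcre library below the lowest mock library. Nfkbia fell 1.53-fold (log2 fold change -0.61, SE 0.09, 95% interval -0.81 to -0.42, edgeR adjusted p = 0.00053), the largest change among the members. Nfkbie encodes I-kappaB-epsilon, a related inhibitor known to restrain c-Rel and RelA in B cells. Nfkbie (ENSMUSG00000023947, chr17:45555700-45563169) was even across mock libraries at 43.5, 43.5 and 44.8 CPM, and read 31.5, 28.4 and 32.9 CPM in tatcre libraries. It fell 1.42-fold (log2 fold change -0.5, SE 0.09, edgeR adjusted p = 0.0019).

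Nfkbib encodes I-kappaB-beta, an inhibitor that is known to respond to stimulation more slowly. Nfkbib (ENSMUSG00000030595, chr7:28758251-28766644) read 72.7, 76.9 and 71.6 CPM in mock and 61.1, 49.6 and 62.7 CPM in tatcre libraries. The lowest value was that of tatcre 2, and the groups did not overlap. It fell 1.28-fold (log2 fold change -0.35, SE 0.1, edgeR adjusted p = 0.024). This call was lost under 3 of the 13 alternatives tried, among them without mock 2 (edgeR adjusted p = 0.078) and with library size alone as the scale (edgeR adjusted p = 0.071), and the adjusted p ranged from 0.0014 to 0.078 over the alternatives tried.

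The nuclear I-kappaB genes differed from each other. Nfkbiz encodes I-kappaB-zeta, a coactivator of a subset of NF-kappaB targets that is itself induced by LPS. Nfkbiz (ENSMUSG00000035356, chr16:55811375-55838954) stood at 86, 86.9 and 105 CPM in mock and at 62.8, 66.4 and 61.1 CPM in tatcre libraries. Mock 3 was the highest library, and without it the log2 fold change was -0.46 in place of -0.54. Nfkbiz fell 1.46-fold (SE 0.09 on the log2 scale, edgeR adjusted p = 0.0018). Bcl3 encodes a nuclear I-kappaB protein that binds p50 and p52 homodimers. Bcl3 (ENSMUSG00000053175, chr7:19808462-19822824) read 101, 97.5 and 80.4 CPM in mock and 120, 85.2 and 119 CPM in tatcre libraries. The groups overlapped, because tatcre 2 lay within the mock range, and Bcl3 was not called (log2 fold change 0.22, 95% interval -0.08 to 0.51, edgeR adjusted p = 0.26). Without tatcre 2 it was called higher (log2 fold change 0.36, edgeR adjusted p = 0.025, over a range of 0.025 to 0.61 for the alternatives tried).

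Among the subunits, both precursor genes fell. Nfkb2, the precursor of p52 in the alternative pathway, was called lower. Nfkb2 (ENSMUSG00000025225, chr19:46300994-46312400) stood at 136, 128 and 134 CPM in mock and at 102, 86.6 and 107 CPM in tatcre libraries, with no overlap. It fell 1.35-fold (log2 fold change -0.44, SE 0.09, 95% interval -0.64 to -0.24, edgeR adjusted p = 0.0049). Nfkb1, the precursor of p50, had the most reads of the 10 genes. Nfkb1 (ENSMUSG00000028163, chr3:135584655-135691969) stood at 968, 1100 and 1020 CPM in mock and at 863, 791 and 904 CPM in tatcre libraries. The groups did not overlap, though mock 1 and tatcre 3 were close. Nfkb1 fell 1.21-fold (log2 fold change -0.27, SE 0.08, edgeR adjusted p = 0.024), the smallest called change here. That call was lost under 5 of the 13 alternatives tried, among them without mock 2, tatcre 1 or tatcre 2 (edgeR adjusted p = 0.081, 0.065 and 0.063) and with library size alone (0.082), within a range of 0.0041 to 0.082.

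The 3 subunits that carry a transactivation domain were not called. Rel encodes c-Rel, the subunit most associated with mature lymphocytes. Rel (ENSMUSG00000020275, chr11:23736847-23770969) read 311, 282 and 318 CPM in mock and 298, 307 and 287 CPM in tatcre libraries. The tatcre values lay inside the mock range, and the 95% interval of the log2 fold change was -0.2 to 0.14 (edgeR adjusted p = 0.8). Rela encodes RelA, or p65, the main partner of p50. Rela (ENSMUSG00000024927, chr19:5637442-5648134) read 93, 91.5 and 79.6 CPM in mock and 92, 76.4 and 104 CPM in tatcre libraries. Its tatcre libraries held both the lowest and the highest value, with an interval of -0.21 to 0.3 (edgeR adjusted p = 0.79). Relb encodes RelB, the partner of p52. Relb (ENSMUSG00000002983, chr7:19606217-19629438) was nearly constant in mock at 23.9, 23.9 and 23.3 CPM and spread over 21.4, 18.9 and 24.5 CPM in tatcre libraries, with an interval of -0.38 to 0.11 (edgeR adjusted p = 0.4). For these genes a fall of the size estimated for Nfkbia (-0.61), Nfkbie (-0.5) or Nfkb2 (-0.44) lay outside the interval. A fall of the size estimated for Nfkbib (-0.35) or Nfkb1 (-0.27) lay outside the intervals of Rel and Rela but inside that of Relb. The estimates of Rel changed sign with upper-quartile factors and with library size alone, and those of Rela without mock 3 or tatcre 3.

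**Figure D2:**
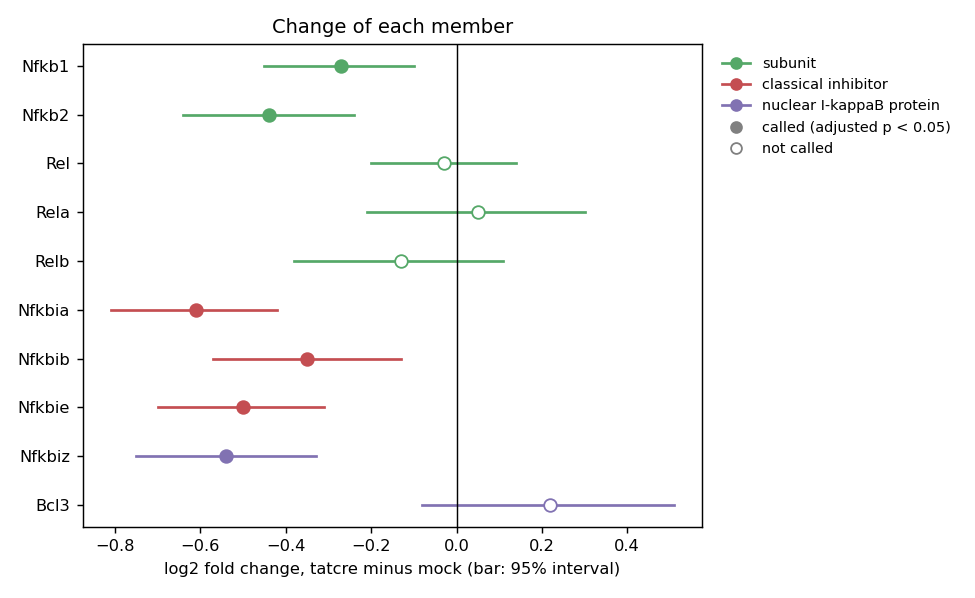
Log2 fold change of each gene (tatcre minus mock, horizontal axis) with its 95% interval; colour gives the role, and filled points are called. The intervals of the 3 classical inhibitors, Nfkbiz, Nfkb1 and Nfkb2 lie below 0, and those of Rel, Rela, Relb and Bcl3 include it.

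Subunits were next set against inhibitors within each library, a measure that scaling between libraries cannot move. Summed reads of the 5 subunits over those of the 5 inhibitors had a log2 ratio of 0.71, 0.7 and 0.58 in mock 1 to 3 and of 0.91, 0.84 and 1.04 in tatcre 1 to 3. The ratio was higher in every tatcre than in every mock library, on average by 0.27 on the log2 scale. Longer transcripts give more reads and their lengths were not used, so the ratio shows a shift and not a number of molecules. Against the 3 classical inhibitors alone the log2 ratio rose from 0.96 ± 0.1 to 1.33 ± 0.14 (SD, n = 3 each), a difference of 0.37. With Nfkbia left out of the inhibitors the groups overlapped, at 2.38 ± 0.04 in mock and 2.39 ± 0.08 in tatcre libraries, a difference of 0.01. With all 5 inhibitors summed, the shift thus depended on Nfkbia, which has the most reads of them. Nfkb1 supplies most of the subunit reads. The inhibitors left without Nfkbia include Bcl3, which was not called. Its mean level was higher in tatcre libraries (93 ± 11 CPM in mock, 108 ± 19.8 CPM in tatcre). Nfkbib and Nfkbie were not summed without the nuclear genes, so a shift of their sum was not tested. Taken singly, both were called lower. Their levels changed by -21.6% and -29.5%, beside -13.8% for the summed level of the subunits. The difference of 0.01 therefore does not describe these 2 genes. No p is given for these sums, since the genes were chosen together.

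**Figure D3:**
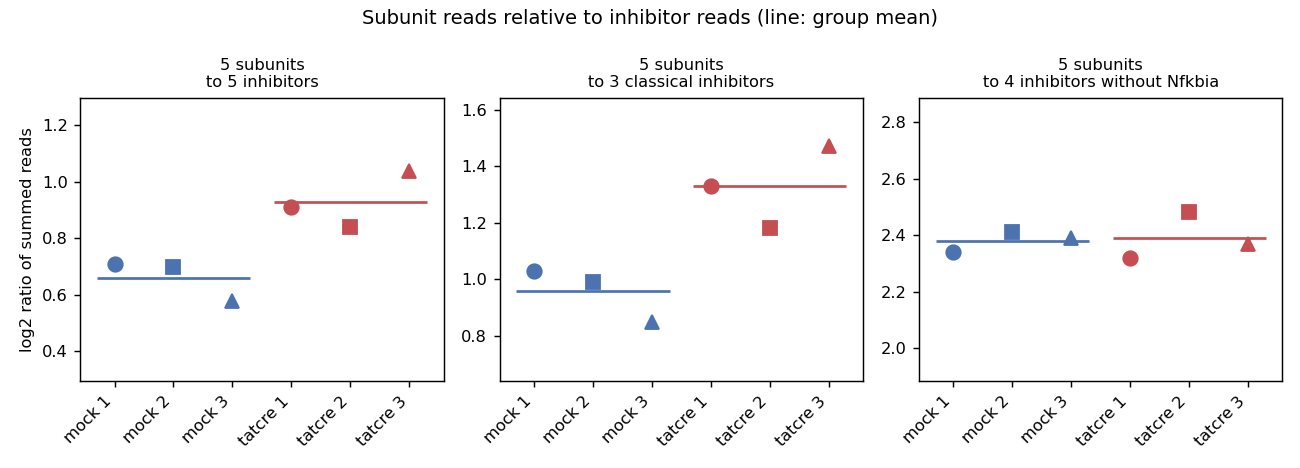
Log2 ratio of summed subunit reads to summed inhibitor reads in each library (points) with the group mean (line), for 3 choices of inhibitors; each vertical axis spans 1 log2 unit. Every tatcre library lies above every mock library in the left and middle panels, and the groups overlap in the right panel, where Nfkbia is left out.

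Single pairs of genes were read in the same way. The log2 ratio of Nfkbia to Rel reads was 1.02, 1.3 and 1.25 in mock and 0.61, 0.67 and 0.55 in tatcre libraries, without overlap. That of Nfkbie to Rel was -2.84, -2.7 and -2.83 in mock and -3.24, -3.43 and -3.13 in tatcre libraries, also without overlap. Nfkbia to Rela was lower in every tatcre library (2.98 ± 0.25 in mock, 2.33 ± 0.33 in tatcre). Bcl3 to Nfkb1 went the other way and was higher in every tatcre library, by 0.48 on average (-3.48 ± 0.21 in mock, -3 ± 0.19 in tatcre). The log2 ratio of Nfkbie to Nfkbia overlapped between groups, at -3.98 ± 0.11 and -3.87 ± 0.21. Within the subunits, the log2 ratio of Rel to Rela overlapped (1.79 ± 0.19 and 1.72 ± 0.27), as did that of Nfkb2 to Nfkb1 (-2.95 ± 0.14 and -3.12 ± 0.06). Relb to Rela was lower in every tatcre library, by 0.18 on average (-1.89 ± 0.1 in mock, -2.07 ± 0.05 in tatcre).

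Profiles over the 6 libraries were compared by the root-mean-square distance of centred log2 CPM, as a description. The closest members were Nfkb2 and Nfkbie (0.05), followed by Nfkbia and Nfkbiz (0.065), and the most distant were Nfkbia and Bcl3 (0.495). Among 6874 other genes of mean log2 CPM of at least 4, the nearest to Nfkbia were Pnpt1, Senp6 and Rnf139, at distances of 0.035, 0.042 and 0.042. Pnpt1, a mitochondrial polynucleotide phosphorylase, read 151, 162 and 174 CPM in mock and 109, 119 and 96.4 CPM in tatcre libraries. Senp6, a SUMO protease, and Rnf139, a ubiquitin ligase of the endoplasmic reticulum, had log2 fold changes of -0.6 and -0.55. The nearest to Rel were Crbn, Cog5 and Orc5, at 0.015, 0.024 and 0.026. None of these 3 was called, with log2 fold changes of -0.06, -0.06 and -0.04 that turn positive with upper-quartile factors and with library size alone.

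The rest of the pathway was read from lists written for this purpose with earlier results of these data known. The list counts stand beside shares of 16.3% called lower and 10.8% called higher over all tested genes. The IKK list holds 11 tested genes, for the IKK complex, for related or activating kinases and for their binding partners. Of these, 4 were called higher and none lower (median log2 fold change 0.08). At an unadjusted edgeR p under 0.05, 1 was lower, and by DESeq2 0 were. Ikbkg, which encodes the regulatory subunit NEMO, read 33.2, 29.4 and 33.3 CPM in mock and 44.1, 45.7 and 45.7 CPM in tatcre libraries and rose 1.41-fold (edgeR adjusted p = 0.0018). The catalytic subunit genes Chuk (101 ± 6.3 and 92.8 ± 4.42 CPM) and Ikbkb (104 ± 3.77 and 110 ± 4.65 CPM) were not called. Upstream of IKK, the kinase gene Map3k7, which encodes TAK1, rose 1.33-fold and its binding partner Tab3 rose 1.55-fold (edgeR adjusted p = 0.0074 and 0.00025). The fourth rise, that of Tab1 (edgeR adjusted p = 0.048), is named because it completes the count, and its groups overlapped. The number higher in this list was 3 without mock 2, mock 3, tatcre 1 or tatcre 3. It was 3 with the replicate number as a block and 5 with library size alone.

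Of 14 adaptor and linear ubiquitin ligase genes that lead from Toll-like and antigen receptors to IKK, 2 were called lower and 1 higher. Among all tested genes 16.3% were called lower and 10.8% higher, so these counts do not stand out. Prkcb, the protein kinase C of antigen receptor signalling, fell 1.82-fold (87.6 ± 4.43 to 48.1 ± 2.29 CPM). Malt1, a paracaspase, rose 1.3-fold (468 ± 36.4 to 608 ± 25.6 CPM). Their edgeR adjusted p-values were 3.8e-05 and 0.0048.

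In the alternative pathway, which runs from receptors of the TNF family to Nfkb2 and Relb, 4 of 8 tested genes were called lower and none higher (median log2 fold change -0.28), and 0 were higher at an unadjusted edgeR p under 0.05 or by DESeq2. Tnfrsf13c, the receptor for the survival factor BAFF, read 580, 570 and 647 CPM in mock and 367, 317 and 350 CPM in tatcre libraries and fell 1.74-fold (edgeR adjusted p = 7.1e-05). Map3k14, which encodes the kinase NIK, read 29.4, 27.1 and 26.6 CPM in mock and 19.1, 13.2 and 19.1 CPM in tatcre libraries and fell 1.62-fold (edgeR adjusted p = 0.0042). Birc3, a ubiquitin ligase that holds NIK down, fell 1.23-fold (edgeR adjusted p = 0.014), a call lost without mock 2 (0.051) and with library size alone (0.068). The fourth was Tnfrsf13b, the receptor TACI, named to complete the count (edgeR adjusted p = 0.018). Without mock 2, or with library size alone, 2 of the 8 were called lower. Ltbr was not tested, at no more than 1 count in any library.

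Of 11 genes for the ubiquitin ligase that marks I-kappaB proteins for destruction, 1 was called, Btrc. It encodes the subunit that recognises phosphorylated I-kappaB and fell 1.28-fold (21.6 ± 1.57 to 16.8 ± 1.83 CPM, edgeR adjusted p = 0.039). The call of Btrc was lost, among other settings, whichever of mock 1, mock 2, mock 3, tatcre 2 or tatcre 3 was left out (edgeR adjusted p = 0.056 to 0.12). It was also lost with upper-quartile factors or library size alone (0.085 and 0.12). With library size alone 4 of these genes were called higher, and with upper-quartile factors 3.

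Of 17 other negative regulators 7 were called lower and none higher (median log2 fold change -0.18), with 1 higher at an unadjusted edgeR p under 0.05 and 0 by DESeq2. The number higher was 2 with library size alone and 1 each with upper-quartile factors, with a filter of 1 CPM and without mock 1. Tnfaip3 encodes the ubiquitin-editing enzyme A20, a textbook NF-kappaB target that dampens the pathway. It read 285, 274 and 280 CPM in mock and 222, 197 and 209 CPM in tatcre libraries and fell 1.34-fold (edgeR adjusted p = 0.0019). Otulin, which removes linear ubiquitin chains, fell 1.52-fold, and the ubiquitin ligase gene Itch fell 1.54-fold (edgeR adjusted p = 0.00031 and 0.00016). The deubiquitinase gene Cyld, at 115 ± 5.93 and 118 ± 3.43 CPM, was not called. Nfkbid, which encodes a further nuclear I-kappaB protein, averaged 12.4 ± 2.33 CPM (mock) and 10.9 ± 0.79 CPM (tatcre) and was not called (edgeR adjusted p = 0.39).

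Of 37 tested genes listed as NF-kappaB targets 21 were called lower and 2 higher, with a median log2 fold change of -0.42 beside 0.02 for all tested genes. Many genes of this list were known from earlier results of these data to be lower, so its count is no independent evidence of direction. Ltb, which encodes lymphotoxin beta, read 34.5, 36.5 and 33.1 CPM in mock and 13.9, 11.1 and 12.7 CPM in tatcre libraries and fell 2.76-fold (edgeR adjusted p = 8.3e-06). The survival genes Bcl2a1d and Bcl2a1b fell 2.39- and 2.37-fold (edgeR adjusted p = 1.9e-06 and 7.1e-06), but these neighbours are near-identical and reads may be split between them. The 2 rises were those of Il10 and, at a low level, Vcam1 (0.808 ± 0.719 to 2.65 ± 0.541 CPM), named to complete the count. Leaving out mock 2, mock 3, tatcre 1 or tatcre 3 left 1 rise in the list. Ccl3, Ccl4, Ccl17 and Tnfaip2 were not tested. The targets include genes that many other factors control.

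**Figure D4:**
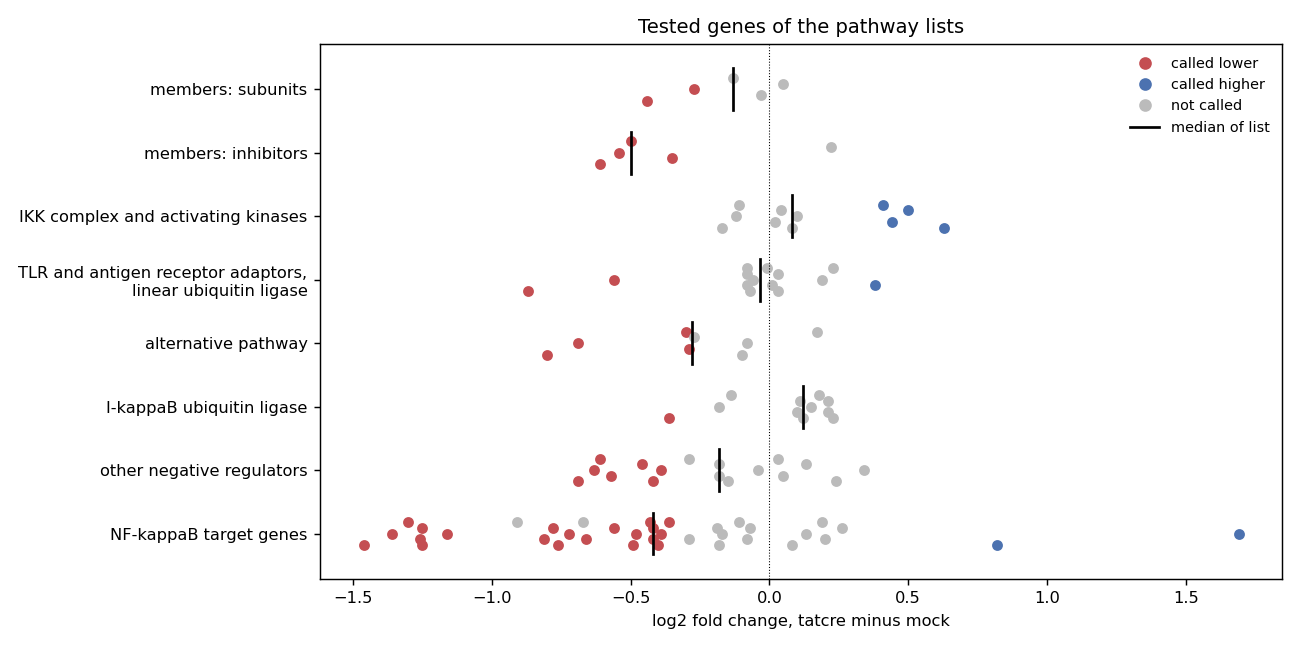
Log2 fold change (tatcre minus mock, horizontal axis) of each tested gene in the subunits, the inhibitors and the 6 pathway lists; points are single genes, coloured by call, and the vertical bar is the median of each list. Medians lie at -0.42 for the target list, -0.5 for the inhibitors and 0.08 for the IKK list.

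The share of falls depends on the scale used between libraries. Falls made up 60.2% of all calls as reported, 48.5% with upper-quartile factors and 42% with library size alone, where the median gene moves from 0.024 to 0.129 in log2 fold change. Nfkbia, Nfkbie, Nfkbiz and Nfkb2 were called lower under each of the 13 alternatives tried, with log2 fold changes of -0.68 to -0.51, -0.56 to -0.4, -0.6 to -0.44 and -0.51 to -0.33. With library size alone 4 of the 10 members were called lower, these same genes.

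Some members share ground with other gene models, and no source used here gives the strand setting of the counting. Psd overlaps the end of Nfkb2, Ccer2 that of Nfkbib, and the noncoding Gm16174 lies within Bcl3. Their highest counts in any library were 37, 6 and 20, beside at least 2075, 1187 and 1888 for the members themselves. RefSeq also places the noncoding Gm46827 within Nfkb1 and 4833438C02Rik within Nfkb2, for which no count was matched by symbol, so their share in those members is not known.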

How the data were processed

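RNA-seq of 3 mock and 3 tatcre libraries was used. The authors deposited raw gene counts. The tools named in the submitters' processing notes are Trimmomatic, TopHat2, SAMtools and HTSeq, with build mm10. No source used here gives their versions, the annotation, the strand setting or how multiply mapped reads were handled. Each count file was used as deposited, with 48795 gene IDs, of which 48349 matched a symbol. The YY1 ChIP-seq peak lists were not used, because peaks lie past the last RefSeq genes of several GRCm38 chromosomes.

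Low counts were removed by filterByExpr of edgeR (minimum count 10, minimum total 15). TMM scaling and the quasi-likelihood test (edgeR 4.0.16, R 4.3.3) were fitted on all kept genes without a replicate block, calling genes at a Benjamini-Hochberg adjusted p under 0.05. SEs and 95% intervals come from that fit. The script was tested on simulated data. The limit that 0 counts allow, 3 counts, equals 0.111 to 0.128 CPM. Replicates all differed beyond sampling noise (chi-square of at least 7.5 per degree of freedom).

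Members, lists and the rule for named genes were chosen with earlier results of these data known. The rule took the members, Yy1, Chuk, Ikbkb, Ikbkg, Map3k14, Tnfaip3, Nfkbid, up to 3 called genes of smallest adjusted p per list, and the 3 genes nearest to Rel and to Nfkbia. A gene that the rule names is not reported here. Other genes named were chosen after their values were seen. Alternatives were RLE, upper-quartile and no scaling factors, DESeq2 1.42.0, other filters, a replicate block and leaving out each library. Gene coordinates are those of RefSeq on GRCm38.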

Additional observations from a re-analysis of the deposited data

How the results depend on the processing

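Leaving out 1 library at a time left 4 to 6 of the 10 members called lower and 0 to 1 called higher, the latter being Bcl3 without tatcre 2. The same step gave 1960 to 2391 genes lower and 998 to 1681 higher over all tested genes, against 2536 and 1679 with every library. Library size alone gave 2614 higher, and without mock 2 or tatcre 1 the number was 998 or 1002. The log2 ratio of subunit to inhibitor reads differed between groups by 0.21 to 0.31 when a library was left out and by 0.01 when Nfkbia was. Estimates that changed sign were all of genes not called: with upper-quartile factors and library size alone, Rel 0.04 and 0.08, Crbn 0.01 and 0.05, Cog5 0.01 and 0.04, Orc5 0.03 and 0.07, and for Rela -0.04 without mock 3 and -0.07 without tatcre 3, within -0.07 to 0.16 over single libraries left out. The cause of these shifts was not tested. The read ratio per kilobase of exon was not run because exon lengths were not used here.

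With the replicate number as a block, 4 of 10 members were called lower. Nfkb1 and Nfkbib kept log2 fold changes of -0.27 and -0.36 (edgeR adjusted p = 0.053 and 0.054), and the call of Btrc was also lost (edgeR adjusted p = 0.076). Over all genes the block gave 2108 lower and 1313 higher. Deviations of same-numbered libraries correlated at 0.06, -0.03 and 0.23, and the numbers were not taken as pairs. With 3 libraries per group such correlations cannot exclude a pairing. Of the 6 libraries 3 correlated best with their own number.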

Other observations

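Among the 3 tatcre libraries, tatcre 2 held the lowest level for 7 of the 10 members (Nfkb1, Nfkb2, Rela, Relb, Nfkbib, Nfkbie and Bcl3) and the highest for the other 3 (Rel, Nfkbia and Nfkbiz). Over all tested genes tatcre 2 was the lowest of its group for 41.5% and the highest for 36.7%. Rela ranged from 76.4 CPM in tatcre 2 to 104 CPM in tatcre 3, and Bcl3 from 85.2 CPM in tatcre 2 to 120 CPM in tatcre 1. Mock 3 was the lowest of its group for 4 members and 37.5% of all tested genes, and the highest for 4 members and 30.2% of all. It held the lowest mock level of Rela (79.6 CPM), Relb (23.3 CPM), Nfkbib (71.6 CPM) and Bcl3 (80.4 CPM) and the highest of Rel (318 CPM), Nfkbia (759 CPM), Nfkbie (44.8 CPM) and Nfkbiz (105 CPM).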
